A study of Mus musculus with 40 samples.

Results

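The Janus kinases Jak1, Jak2, Jak3 and Tyk2 and the transcription factors Stat3, Stat4, Stat5a, Stat5b and Stat6 form the JAK-STAT route that carries cytokine and growth factor signals to the nucleus. These 9 genes, of 21840 protein-coding genes in the annotation, were followed through peak lists of H3K27ac, the acetylation found at promoters and enhancers in use, and H3K4me1, the methylation that enhancers carry whether in use or only primed. A peak counted as theirs where the nearest protein-coding start site belonged to 1 of the 9 genes and lay within 50 kb (50000 bp) of the peak summit. By this rule the genes held 42 to 68 of the 31978 to 43363 H3K27ac peaks of a list, and 100 to 148 of the 72682 to 117039 H3K4me1 peaks. After the peaks of the 6 lists of a mark were merged wherever they overlapped, the genes held 81 of 51353 H3K27ac regions assigned to a gene and 174 of 133135 such H3K4me1 regions.

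The marks were measured by ChIPmentation, chromatin immunoprecipitation with sequencing adapters added by the transposase Tn5, in haematopoietic stem and progenitor cells sorted from mice aged 21 days. The 6 genotypes were wild type, the single alterations Flt3-ITD, NUP98-HOXD13 and Runx1-het, and Flt3-ITD joined to either of the others (Flt3-ITD/NUP98-HOXD13, Flt3-ITD/Runx1-het). Flt3-ITD is an internal tandem duplication that makes the receptor tyrosine kinase FLT3 signal without its ligand, NUP98-HOXD13 fuses a nucleoporin to a homeobox transcription factor, and Runx1 encodes a transcription factor of blood stem cells. The source names behind Runx1-het join Runxf and Vav, and neither the exact alleles nor the promoter of the fusion transgene is stated in the labels. Each group of 3 or 4 samples was deposited as 1 pooled peak list per mark, 12 lists in all. No value per animal was therefore used, differences between genotypes were not tested, no p-value is given, and the 95% Wilson intervals cover counting error only. Fold enrichment is the authors' value over control at each peak summit. To set a region's rank beside its rank in another list, its fold was ranked among the 11800 H3K27ac regions that all 6 lists hold, which are the same regions in each list.

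Of 9 stem and progenitor marker genes, 8 or 9 had an H3K27ac peak within 1 kb of a start site in each list (Gata2 lacked one in the Flt3-ITD, Runx1-het and Flt3-ITD/Runx1-het lists), and none of 4 T cell genes had one. B cell, granulocyte, macrophage and stroma genes showed 0 or 1 such promoter per list and endothelial genes 1 of 3, with the endothelial markers Cdh5 and Tek unmarked throughout. Of the erythroid genes, Hbb-bt had one in each list and Hba-a1 in none. Fewer cells of a type and less signal per cell cannot be told apart in such lists. The wild-type H3K27ac list stood apart in shape: its peaks had a median width of 389 bp against 586 to 888 bp in the mutant lists, and it held the most peaks (43363) over the least length (28.0 Mb). Promoter peaks at the Y-linked genes Ddx3y and Uty appeared in both Runx1-het lists and in no other H3K27ac list. All 9 genes described here lie on autosomes, but there too a difference by sex and one by Runx1-het cannot be told apart.

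As background, the signalling chains of cytokine receptors hold Janus kinases at their cytoplasmic tails, and ligand binding lets the kinases phosphorylate each other and the receptor. STAT proteins dock there, are phosphorylated, pair up and bind DNA at palindromes of the form TTCNNNGAA. In blood progenitors, JAK2 serves the receptors for erythropoietin, thrombopoietin, interleukin-3 and GM-CSF, STAT5A and STAT5B are their chief factors, and a FLT3 receptor with the internal tandem duplication is known to activate STAT5 without those cytokines.

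Stat4 and Stat5b each have an upstream and an internal annotated start site, and the acetylation lay very differently at them, so the bases before both sites are printed, with those before the Jak2 start, where the Runx1-het list differed. The windows are the bases just upstream of each start on the gene's own strand, from RefSeq (GRCm38.p6), and capitals mark a match to the ETS motif GGAAGT.
Stat4, upstream start, chr1:51986898-51987147 (+): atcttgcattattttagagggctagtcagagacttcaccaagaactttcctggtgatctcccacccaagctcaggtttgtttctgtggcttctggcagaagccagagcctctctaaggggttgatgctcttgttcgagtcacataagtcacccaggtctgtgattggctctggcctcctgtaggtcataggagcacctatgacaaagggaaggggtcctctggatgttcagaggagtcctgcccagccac
Stat4, internal start, chr1:52007990-52008239 (+): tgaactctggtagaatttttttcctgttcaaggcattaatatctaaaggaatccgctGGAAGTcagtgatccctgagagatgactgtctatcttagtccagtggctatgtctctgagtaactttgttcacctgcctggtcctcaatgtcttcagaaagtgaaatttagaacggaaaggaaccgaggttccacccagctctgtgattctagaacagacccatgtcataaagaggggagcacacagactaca
Stat5b, upstream start, chr11:100850725-100850831 (-): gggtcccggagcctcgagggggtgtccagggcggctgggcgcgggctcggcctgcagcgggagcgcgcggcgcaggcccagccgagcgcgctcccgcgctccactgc
Stat5b, internal start, chr11:100822571-100822820 (-): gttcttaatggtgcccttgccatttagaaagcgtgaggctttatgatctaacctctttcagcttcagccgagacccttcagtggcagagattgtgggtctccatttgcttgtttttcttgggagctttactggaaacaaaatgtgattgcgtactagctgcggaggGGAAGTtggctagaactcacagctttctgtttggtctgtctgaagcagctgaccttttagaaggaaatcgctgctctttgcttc
Jak2, chr19:29251553-29251802 (+): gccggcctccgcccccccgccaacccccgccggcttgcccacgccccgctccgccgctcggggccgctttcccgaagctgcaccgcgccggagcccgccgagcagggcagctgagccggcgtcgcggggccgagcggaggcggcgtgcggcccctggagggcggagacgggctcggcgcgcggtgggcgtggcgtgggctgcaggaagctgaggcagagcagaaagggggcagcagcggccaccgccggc

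The windows differ in composition. The Jak2 window has 80.8% G and C and the stretch before the upstream Stat5b start 82.2%, whereas the internal Stat5b window has 46.4%, the internal Stat4 window 44.0% and the upstream Stat4 window 51.6%, beside a median of 52.4% over 32851 promoter windows of 250 bp. The upstream Stat4 window holds 1 CpG and the Jak2 window 37. Motifs were searched on both strands in the 12 RefSeq windows of the 9 genes. The ETS letters GGAAGT occurred in 4 of them (Stat3, the internal starts of Stat4 and Stat5b, and Stat5a), 193 bp before the internal Stat4 start (offset -193) and 84 bp before the internal Stat5b start (offset -84), while 19.7% of all windows hold them. The RUNX letters TGTGGT occurred in the Stat6 window only, beside 14.0% of all windows. The STAT palindromes TTCNNNGAA (7.02% of all windows) and its STAT6-type form with 1 more base in the middle (5.85%), and the GATA letters AGATAA (9.99%), were in none of the 12. The GAA end of a STAT palindrome can overlap the ETS letters, and a missing match says only that these letters are not in these windows.

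H3K27ac marked the promoters of nearly all 9 genes in every list. A promoter, taken as 1 kb to either side of any start site, held an H3K27ac peak at 8 of 9 genes in the Flt3-ITD and Runx1-het lists, with Tyk2 missing, and at 9 of 9 in the other 4 lists. Over all genes the share was 39.4% for wild type, 43.0% for Flt3-ITD, 45.2% for NUP98-HOXD13, 39.4% for Runx1-het, 45.5% for Flt3-ITD/NUP98-HOXD13 and 46.1% for Flt3-ITD/Runx1-het.

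Among the kinases, Jak1, which serves the interferon, gp130 and common gamma chain receptors, had the strongest promoter peak in every list. Its fold enrichment was 12.9 for wild type, 20.4 for Flt3-ITD, 17.0 for NUP98-HOXD13, 20.3 for Runx1-het, 25 for Flt3-ITD/NUP98-HOXD13 and 18.5 for Flt3-ITD/Runx1-het. Its rank among the shared regions stayed close, from the 83.9th percentile in wild type to the 90.8th in Flt3-ITD/NUP98-HOXD13. Jak3, the kinase bound to the common gamma chain of lymphoid cytokine receptors, had 1 assigned H3K27ac peak per list. This peak over its start (chr8:71675182-71677746) had a fold of 7.64 for wild type, 9.37 for Flt3-ITD, 13.8 for NUP98-HOXD13, 12.4 for Runx1-het, 15.4 for Flt3-ITD/NUP98-HOXD13 and 11.7 for Flt3-ITD/Runx1-het. The ranks were 54.2 and 53.2 for wild type and Flt3-ITD and 65.8 to 79.8 in the other 4 lists. Tyk2, the partner kinase of the type I interferon and interleukin-12 receptors, had the weakest promoter peak of the 9 genes in each of the 4 lists that called one, 4.34 for wild type, 3.62 for NUP98-HOXD13, 2.67 for Flt3-ITD/NUP98-HOXD13 and 5.31 for Flt3-ITD/Runx1-het. With a peak threshold of −log10 q of at least 5, its promoter peak was left in the Flt3-ITD/Runx1-het list only.

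The Jak2 promoter region ranked far lower in the Runx1-het list than in the other 5. The region over its start (chr19:29250170-29255086) had a fold of 7.31 for wild type, 9.89 for Flt3-ITD, 7.66 for NUP98-HOXD13, 3.65 for Runx1-het, 10.4 for Flt3-ITD/NUP98-HOXD13 and 8.78 for Flt3-ITD/Runx1-het. Ranked among the shared regions, it stood at 2.9 for Runx1-het and between 46.3 and 56.2 in the other 5 lists, so the Runx1-het value lay below all others and the other 5 lay close together. In Runx1-het the region was called as 3 peaks of nearly equal height, with folds of 3.65, 3.64 and 3.59, over 1049, 1819 and 813 bp. In Flt3-ITD it was 1 peak of 3534 bp and in Flt3-ITD/NUP98-HOXD13 1 peak of 4052 bp. Split peaks were not particular to Runx1-het. Within 1 kb of the first start, wild type had 3 peaks, NUP98-HOXD13 and Runx1-het 2 each, and the remaining lists 1 each. The low value did not extend to the gene's intronic region 18.9 kb downstream, where Runx1-het had a fold of 11.9 (rank 71.5) and wild type 9.94 (rank 71.9). Flt3-ITD/Runx1-het, the other list with Runx1-het, did not share the low promoter value (rank 48.0). The share of the shared regions in which 1 list ranked this far below the rest was not counted, so this order has no background. With 1 pooled list per genotype, a difference between animals and a difference between genotypes cannot be told apart.

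**Figure D1:**
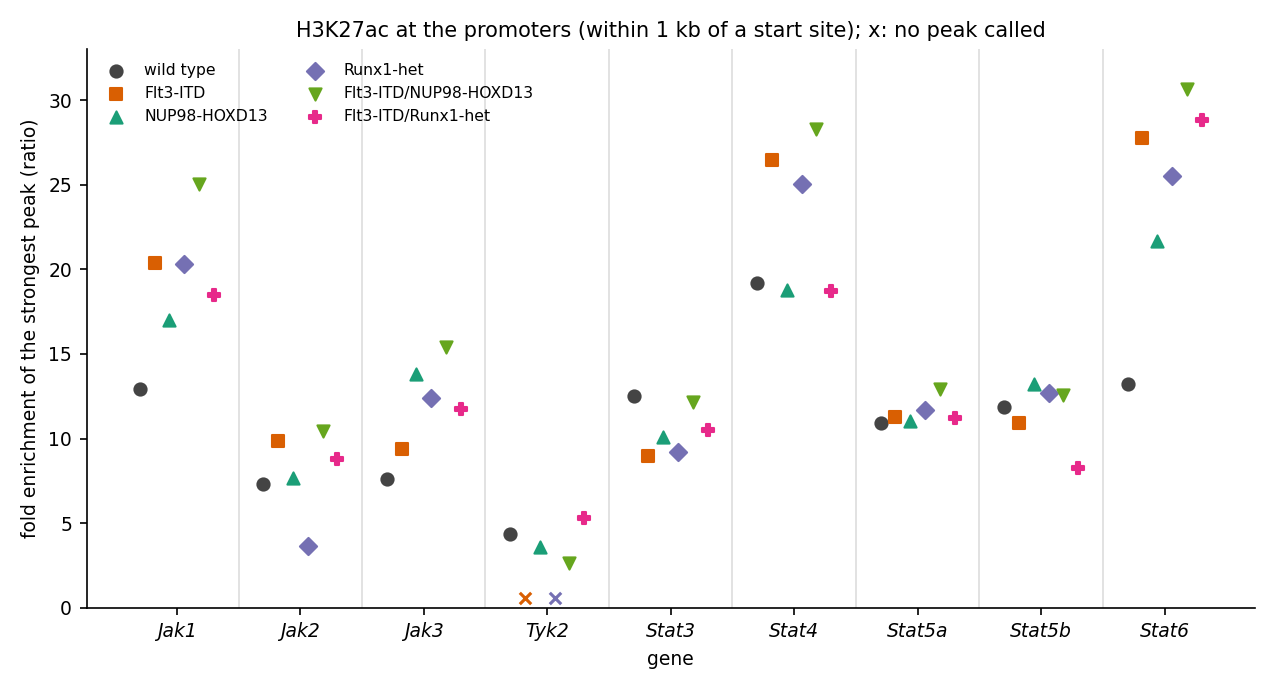
Fold enrichment (a ratio, vertical axis from 0) of the strongest H3K27ac peak within 1 kb of a start site for each of the 9 genes (horizontal axis) in the 6 pooled lists, 1 point per list, with a cross where no peak was called. Jak2 for Runx1-het (3.65) lies below the other 5 lists (7.31 to 10.4), Stat6 for wild type (13.2) lies below the 5 mutant lists (21.7 to 30.7), and Tyk2 has crosses for Flt3-ITD and Runx1-het.

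Among the STAT genes, Stat6, the factor of interleukin-4 and interleukin-13, and Stat4, the factor of interleukin-12, had the strongest promoter peaks. At Stat6 (chr10:127641842-127644533) the fold was 13.2 for wild type, 27.8 for Flt3-ITD, 21.7 for NUP98-HOXD13, 25.5 for Runx1-het, 30.7 for Flt3-ITD/NUP98-HOXD13 and 28.8 for Flt3-ITD/Runx1-het. The wild-type rank of 84.8 was the lowest and the 5 mutant ranks lay between 93.9 and 96.6. Stat3, the main factor of interleukin-6 type cytokines and G-CSF, went the other way, with 12.5 for wild type (rank 82.7) and 8.99 to 12.1 in the mutant lists (ranks 50.6 to 63.8). The share of the 11800 shared regions in which wild type ranked lowest or highest was not counted, so these orders have no background. The Stat3 promoter region (chr11:100936181-100941349) was the widest of these after Stat4 and Stat5b, at 5169 bp, and its strongest summit lay in an intron. Stat5a, a chief factor of the growth factors named above, varied least by fold, with folds of 10.9 for wild type, 11.3 for Flt3-ITD, 11 for NUP98-HOXD13, 11.7 for Runx1-het, 12.9 for Flt3-ITD/NUP98-HOXD13 and 11.2 for Flt3-ITD/Runx1-het. Its ranks ran from 63.4 to 77.0, highest in wild type, a wider range than those of Jak1, Stat4 and Stat6. At the promoters of Stat5a and Stat5b the lists with Flt3-ITD overlapped those without it.

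The annotated upstream start of Stat4 carried no peak of either mark within 1 kb in any of the 12 lists. The nearest peak lay 8709 to 23412 bp away. The internal start, 21095 bp downstream, carried the gene's H3K27ac peak, with a fold of 19.2 for wild type, 26.4 for Flt3-ITD, 18.8 for NUP98-HOXD13, 25 for Runx1-het, 28.3 for Flt3-ITD/NUP98-HOXD13 and 18.7 for Flt3-ITD/Runx1-het. The region around it (chr1:52006362-52012893, 6532 bp) ranked between 86.7 and 94.5 in all 6 lists. H3K4me1 was called within 1 kb of this start in the NUP98-HOXD13 and Flt3-ITD/Runx1-het lists only, with folds of 3.79 and 3.18, and the nearest peak in the other lists lay 1257 to 3903 bp away. Acetylation of the gene in these cells was thus placed at the internal start printed above, and the peak lists do not show which transcript is made.

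Stat5b, the close relative of Stat5a, had H3K27ac at both of its start sites, which lie 28196 bp apart. The internal start had a fold of 11.9 for wild type, 10.9 for Flt3-ITD, 13.2 for NUP98-HOXD13, 12.7 for Runx1-het, 12.6 for Flt3-ITD/NUP98-HOXD13 and 7.25 for Flt3-ITD/Runx1-het. At the upstream start, with its G and C rich window, the values were 4.67, 7.95, 6.25, 6.46, 5.24 and 8.24 in the same order. The internal start was thus the higher of the pair in 5 of 6 lists, and in Flt3-ITD/Runx1-het the upstream start was the higher. On the common scale the internal region ranked at 35.0 in Flt3-ITD/Runx1-het and at 62.4 to 80.4 in the other lists. The upstream region ranked at 43.8 in Flt3-ITD/Runx1-het and at 15.3 to 42.5 in the others, so the order within each list was the same.

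Stat5b, Stat5a and Stat3 are neighbours on chromosome 11. The upstream Stat5b start and the first Stat5a start point away from each other, 8627 bp apart, and the ends of Stat5a and Stat3 overlap by 72 bp. A distal region held by all 6 lists (chr11:100890315-100893106) lay 31.2 kb into the Stat5a side by the nearest-start rule but inside an intron of Stat3, so which of these genes it serves was not tested. Its fold was 11.1 for wild type, 9.11 for Flt3-ITD, 11.8 for NUP98-HOXD13, 10.9 for Runx1-het, 11 for Flt3-ITD/NUP98-HOXD13 and 13.3 for Flt3-ITD/Runx1-het, about as high as the Stat5a promoter itself in the same lists. H3K4me1 was called over part of it (chr11:100892105-100892950) in the 5 mutant lists, with folds of 4.41 to 7.32, and not in wild type. Over another part of it (chr11:100890758-100891924) H3K4me1 was called in wild type with a fold of 3.39 and in 4 mutant lists with 4.11 to 6.96, and not in Runx1-het.

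**Figure D2:**
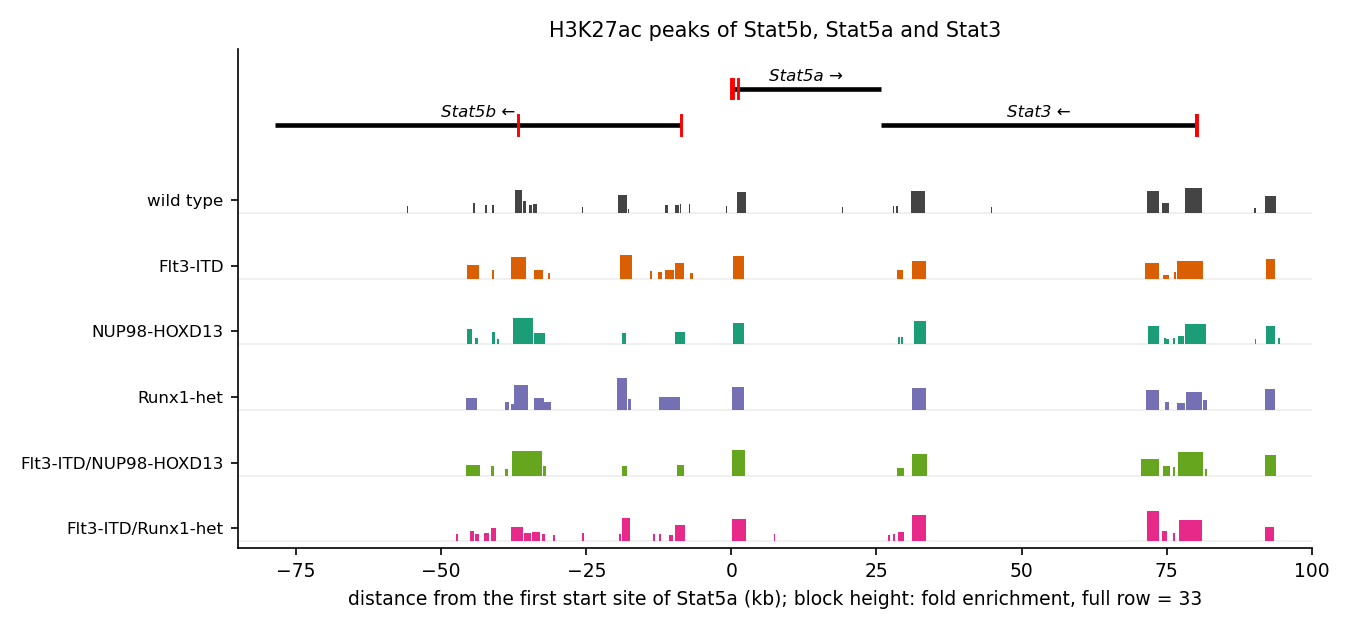
H3K27ac peaks assigned to Stat5b, Stat5a and Stat3 in the 6 pooled lists (rows) by distance in kb from the first Stat5a start site, with block height proportional to fold enrichment. Black bars are the genes with their direction and red ticks the annotated start sites. The block 9.8 kb inside Stat5b is lowest in NUP98-HOXD13 (5.77) and Flt3-ITD/NUP98-HOXD13 (4.65). The block inside Stat3, 31.2 kb from the nearest Stat5a start (not the first, where the axis begins), is present in all 6 rows.

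Stat3 itself had 2 strong regions outside its promoter in every list. The intronic region 7.8 kb downstream of the start (chr11:100929996-100933066) had a fold of 11.3 for wild type, 8.03 for Flt3-ITD, 9.43 for NUP98-HOXD13, 10.0 for Runx1-het, 8.32 for Flt3-ITD/NUP98-HOXD13 and 15.3 for Flt3-ITD/Runx1-het. An intergenic region 12.7 kb upstream (midpoint at -12.7 kb, chr11:100951268-100953119) had 8.51, 10.2, 9.30, 10.5, 10.3 and 7.27 in the same order. In Flt3-ITD/Runx1-het the intronic region was thus at its highest and the upstream region at its lowest of the 6 lists.

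Both lists with the fusion ranked below all others at 2 intronic regions, in Jak2 and in Stat5b. The Jak2 region 18.9 kb downstream of the start (chr19:29270156-29272621) had a fold of 9.94 for wild type, 9.03 for Flt3-ITD, 11.9 for Runx1-het and 8.51 for Flt3-ITD/Runx1-het, against 4.61 for NUP98-HOXD13 and 4.70 for Flt3-ITD/NUP98-HOXD13. Its ranks were 45.9 to 71.9 without the fusion and 13.9 and 10.3 with it. At the Stat5b region 9.8 kb downstream of the upstream start (chr11:100839626-100842305) the folds were 8.95, 12.1, 16.0 and 11.7 without the fusion, in the same order, and 5.77 and 4.65 with it. Its ranks were 65.7 to 83.1 without the fusion and 27.8 and 9.7 with it, so the groups of lists did not overlap at either region. By fold alone this also held at the intronic Jak1 region 11.2 kb downstream of the start (chr4:101252399-101255716), with 4.61 for NUP98-HOXD13 and 3.96 for Flt3-ITD/NUP98-HOXD13 against 5.0 to 6.38 without the fusion, but there the rank of 13.5 for Flt3-ITD lay below the 13.9 for NUP98-HOXD13. A neighbouring Jak2 region, 13.4 kb downstream of the start, was held by the other 5 lists (folds 3.66 to 6.46) and missing from NUP98-HOXD13. The Jak2 and Stat5b regions are 2 of 12 distal regions of the 9 genes in all 6 lists (16.7%), beside 761 of 4743 distal regions over all genes (16.0%) in which both fusion lists ranked lowest. The share over the 9 genes was thus near that over all genes, and none of their 9 promoter regions in all 6 lists showed this pattern, beside 5.70% of 7057 over all genes. In the reverse pattern both fusion lists ranked highest. It held at 1 of the 12 distal regions, 5.8 kb beyond the internal Stat4 start, beside 5.82% over all genes. It also held at 1 of the 9 promoter regions, that of Jak3, beside 13.2% over all genes. The lists with the fusion were pooled over 4 samples for H3K27ac and the others over 3.

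**Figure D3:**
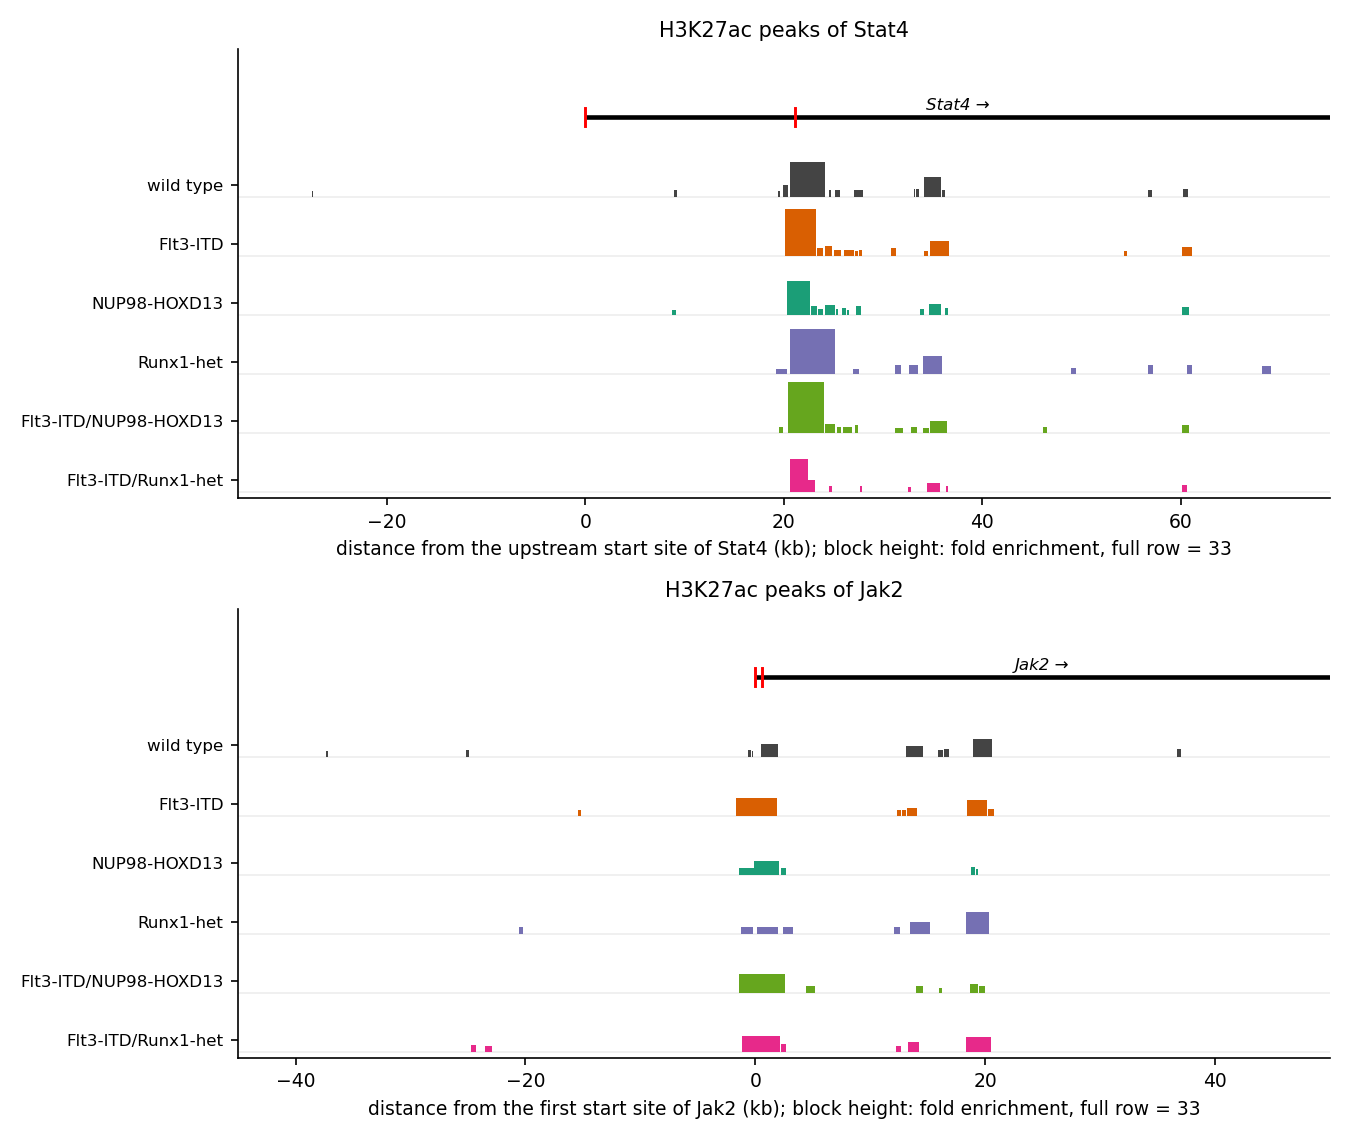
H3K27ac peaks assigned to Stat4 (top) and Jak2 (bottom) in the 6 pooled lists by distance in kb from the upstream start site, with block height proportional to fold enrichment and red ticks at annotated start sites. Stat4 has no block at its upstream start and its highest blocks at the internal start 21095 bp away (18.7 to 28.3). Jak2 shows low blocks at the start in Runx1-het and low blocks 18.9 kb downstream in both lists with NUP98-HOXD13. The blocks at the Jak2 start are split in wild type, NUP98-HOXD13 and Runx1-het.

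Stat4 and Jak1 held the other strong distal regions. The Stat4 region 14.0 kb beyond the internal start (chr1:52020823-52023743) had a fold of 11.1 for wild type, 8.34 for Flt3-ITD, 6.02 for NUP98-HOXD13, 10.0 for Runx1-het, 6.79 for Flt3-ITD/NUP98-HOXD13 and 5.31 for Flt3-ITD/Runx1-het. Its rank was highest in wild type (77.6) and Runx1-het (62.5), and lowest in Flt3-ITD/Runx1-het (16.2). At Jak1 an intergenic region upstream of the start (midpoint at -27.6 kb, chr4:101291664-101294139) had 8.86 for wild type and 5.14 to 7.89 in the mutant lists. The Tyk2 region centred at -4.8 kb (chr9:21135031-21137135) lies over an untranslated region of its neighbour Cdc37 and was held by 5 lists with folds of 2.95 to 4.42, Runx1-het lacking it. In Runx1-het Tyk2 thus had no H3K27ac peak.

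The rule leaves out part of the longest genes. Of 31 H3K27ac regions over the body of Jak1, 23 lay more than 50 kb from any start, and of 17 over the body of Stat4, 1 did. Over the body of Stat3, 4 of 9 were nearer to Stat5a.

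Per gene, Stat5b and Stat4 held most H3K27ac peaks and Jak1 most H3K4me1 peaks. Over the 6 lists Stat4 had 69 and Stat5b 67 H3K27ac peaks, followed by Jak1 with 47, Jak2 with 42, Stat3 with 37, Stat5a with 24, Tyk2 with 14, Stat6 with 8 and Jak3 with 6. For H3K4me1 the order was Jak1 with 200, Stat5b with 156, Stat4 with 96, Jak2 with 91, Stat3 with 70, Stat5a with 51, Tyk2 with 45, Stat6 with 26 and Jak3 with 7. A count of peaks depended on how a list split its domains, and length under peaks did not follow it. For Stat5b the wild-type list had 15 H3K27ac peaks over 8095 bp, Flt3-ITD 11 over 13798 bp, NUP98-HOXD13 8 over 10164 bp, Runx1-het 9 over 14247 bp, Flt3-ITD/NUP98-HOXD13 7 over 11295 bp and Flt3-ITD/Runx1-het 17 over 13965 bp. Wild type thus had the second highest count and the shortest length. Over all 9 genes the wild-type list covered 48681 bp with 68 peaks and the mutant lists 49848 to 60213 bp with 42 to 59 peaks. For Stat4 the shortest length was in Flt3-ITD/Runx1-het, 5280 bp against 8938 to 12039 bp in the other lists.

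**Figure D4:**
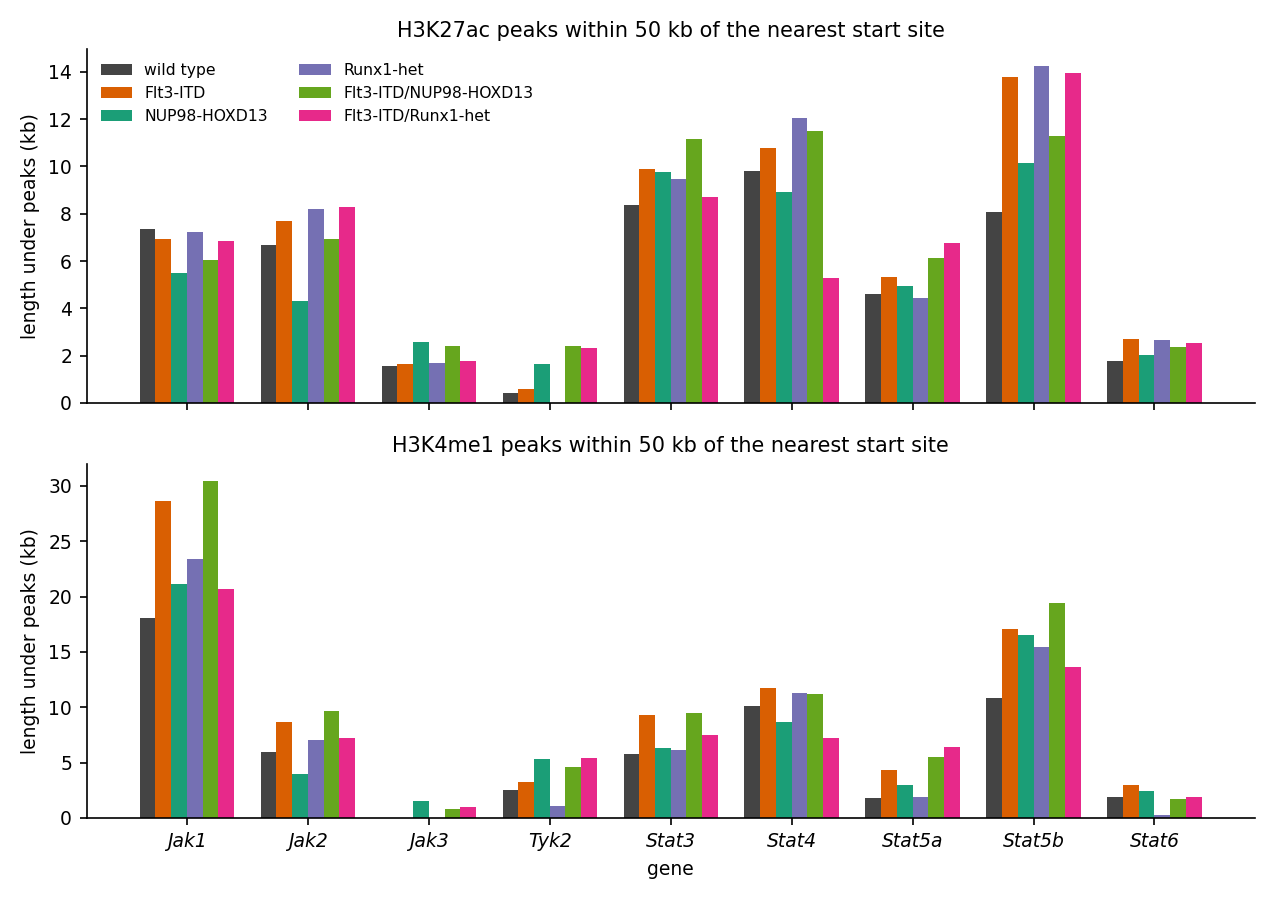
Length under H3K27ac peaks (top) and H3K4me1 peaks (bottom), in kb from 0, for each of the 9 genes in the 6 pooled lists, 1 bar per list. Stat5b in wild type has the shortest H3K27ac bar of that gene (8095 bp), Stat4 is shortest in Flt3-ITD/Runx1-het (5280 bp), and the H3K27ac bars of Jak3, Tyk2 and Stat6 reach at most 2565, 2396 and 2692 bp.

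Most H3K27ac regions of the 9 genes were either in all 6 lists or in 1. Of the 81, 21 (25.9%) were in all 6, beside 23.0% over all genes, and 40 (49.4%) were in 1 list, beside 48.4%. The 21 comprised 9 promoter and 12 distal regions and covered every gene but Tyk2, with only the promoter at Jak3 and Stat6. The 40 were weak, with a median fold of 3.53 and a highest of 5.33. The wild-type list alone held 15 of them and the Flt3-ITD/Runx1-het list alone 11, and the other 4 lists held 2 to 5 each.

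Set against wild type, each mutant H3K27ac list lost more regions at these genes than it gained. Gained regions were held by the mutant list and not by the reference list, and lost regions the other way round. Flt3-ITD gained 9 and lost 25 of 60 regions held by either list, where 26.8% were gained and 26.2% lost over all genes. NUP98-HOXD13 gained 5 and lost 24 of 56 (24.8% and 29.1% over all genes), and Runx1-het gained 7 and lost 26 of 58 (22.1% and 32.1%). Flt3-ITD/NUP98-HOXD13 gained 5 and lost 23 of 56 (27.3% and 26.6%), and Flt3-ITD/Runx1-het gained 14 and lost 21 of 65 (33.6% and 23.4%). The gained share of the regions that differed was 26.5% (14.6 to 43.1) for Flt3-ITD, 17.2% (7.6 to 34.5) for NUP98-HOXD13, 21.2% (10.7 to 37.8) for Runx1-het, 17.9% (7.88 to 35.6) for Flt3-ITD/NUP98-HOXD13 and 40% (25.6 to 56.4) for Flt3-ITD/Runx1-het. Over all genes the same shares were 50.6%, 46.0%, 40.7%, 50.7% and 58.9%. The 5 comparisons share the wild-type list, so they are not independent of each other.

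The direction of this imbalance turned with the peak threshold. With only peaks of −log10 q of at least 5, Flt3-ITD gained 5 and lost 1 region (83.3%, beside 85.7% over all genes), Runx1-het gained 8 and lost 1 (88.9%, beside 81.4%) and NUP98-HOXD13 gained 4 and lost 4 (50%, beside 62.5%). A region gained or lost in this way can still hold a weaker peak in the other list. Of the regions gained with all peaks, 1 of 9 in Flt3-ITD, 3 of 7 in Runx1-het and 1 of 5 in NUP98-HOXD13 reached that threshold. Of the 21 to 26 wild-type regions lost in a mutant list, 1 or 2 per comparison reached that threshold in the wild-type list, where their median −log10 q was 2.64 to 2.78. The 15 regions in the wild-type list alone had folds of 3.03 to 5.33 with a median of 3.68. The wild-type list was also the list with the most and narrowest peaks, and the part of this in the losses was not tested.

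Without the wild-type list the balance was close to that of all genes. Flt3-ITD/NUP98-HOXD13 gained 7 and lost 6 of 39 regions against NUP98-HOXD13, where 22.8% were gained and 17.2% lost over all genes, a gained share of 53.8% (29.1 to 76.8) beside 56.9%. Flt3-ITD/Runx1-het gained 20 and lost 8 of 52 against Runx1-het (37.3% and 16.9%), a gained share of 71.4% (52.9 to 84.7) beside 68.8%. Of those 20 gains, 6 were at Stat5b, 4 at Stat5a, 3 at Jak1, 3 at Tyk2 and 2 at Jak2. At the stricter threshold this comparison had 2 gained and 6 lost regions (25%, beside 45.5% over all genes).

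**Figure D5:**
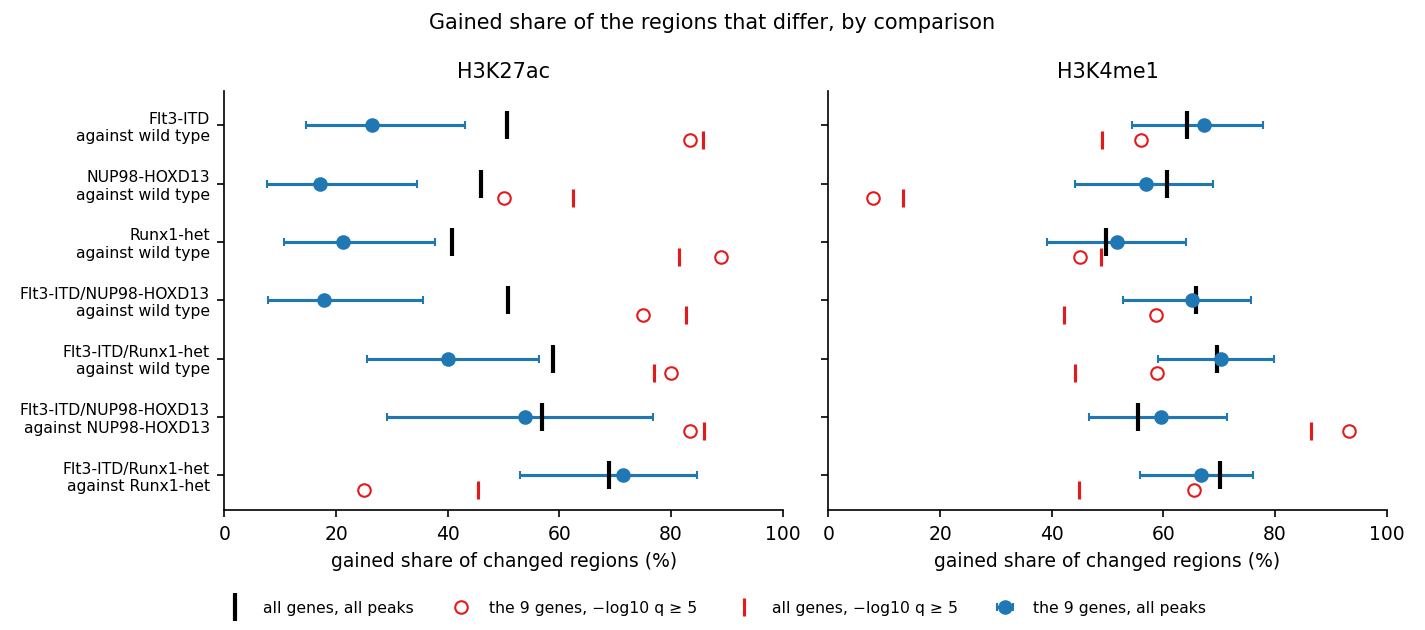
Gained share (percent, axis 0 to 100) of the regions of the 9 genes that differ between 2 lists, for 7 comparisons and both marks. Blue points are the 9 genes with 95% Wilson intervals, black ticks all genes, and red open circles and ticks the same at −log10 q of at least 5. For H3K27ac the blue points against wild type (17.2 to 40%) lie left of the black ticks, and the red circles of the same 5 comparisons (50 to 88.9%) lie right of the blue points.

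No H3K27ac region of the 9 genes was held by every list with a given alteration and by no other list, or by every list without it and by none with it. Regions in all lists with Flt3-ITD and in no other numbered 0 of 81 (0.771% over all genes), with NUP98-HOXD13 0 (1.41%), with Runx1-het 0 (0.565%) and in all 5 mutants but not wild type 0 (1.89%). Regions missing from every list with Flt3-ITD and held by all others also numbered 0 (0.0974%), as did those missing with NUP98-HOXD13 (0.432%) and with Runx1-het (0.271%). A count of 0 of 81 allows a share of up to 3.70%, above each of these shares over all genes. The 15 regions in wild type only (18.5% of 81) stood beside 11.7% over all genes.

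With the regions in wild type only included, 15 of 81 H3K27ac regions and 17 of 174 H3K4me1 regions followed such a pattern, and 6 of the 17 were at Jak1. In the lists with Flt3-ITD and no other were 2 regions, both of Jak1, 23.6 kb into the gene (chr4:101241354-101242068) and upstream of it (midpoint at -18.8 kb, chr4:101283324-101284822), beside 0.870% over all genes. Their folds were 4.31 and 4.08 for Flt3-ITD, 3.10 and 3.54 where the fusion was added, and 5.81 and 6.53 where Runx1-het was added. With NUP98-HOXD13 came 1 region, at Jak1 (midpoint at -41.4 kb, folds 3.96 and 6.32), beside 1.74%, and with Runx1-het 1, at Jak1 36.1 kb into the gene (folds 4.17 and 3.91), beside 0.772%. Missing with NUP98-HOXD13 and held by all others was 1 region, just upstream of the Stat3 starts (midpoint at -0.7 kb, chr11:100940011-100940551, folds 3.93 to 4.78), beside 0.345%. None was missing with Flt3-ITD (0.134%) or with Runx1-het (0.513%). In all 5 mutants but not in wild type were 3 (2.30%), at Jak1 28.9 kb into the gene, at the internal start of Stat5b (chr11:100822730-100824380, folds 4.0 to 5.99) and in the Stat3 intron assigned to Stat5a. In wild type only were 9 (6.03%). These shares are of the same order as those over all genes, and several of the regions move in or out with the threshold.

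H3K4me1 changes at the 9 genes followed those of the whole lists. Of the 174 regions 28 (16.1%) were in all 6 lists, beside 10.2% over all genes. Against wild type, Flt3-ITD gained 39 and lost 19 of 107 regions (40.8% and 22.7% over all genes) and NUP98-HOXD13 gained 33 and lost 25 of 101 (41.0% and 26.6%). Runx1-het gained 30 and lost 28 of 98 (32.0% and 32.2%), Flt3-ITD/NUP98-HOXD13 gained 41 and lost 22 of 109 (42.4% and 22.1%) and Flt3-ITD/Runx1-het gained 50 and lost 21 of 118 (49.6% and 21.7%). Flt3-ITD/NUP98-HOXD13 gained 34 and lost 23 of 110 against NUP98-HOXD13 (31.4% and 25.3%), and Flt3-ITD/Runx1-het gained 54 and lost 27 of 124 against Runx1-het (49.2% and 20.8%). The gained shares of 51.7 to 70.4% stood beside 49.8 to 70.2% over all genes, and each of the 7 Wilson intervals held the share over all genes. In Flt3-ITD, Jak1 had 12 of the 39 gains, more than any other of the 9 genes, and 2 losses.

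Fewer promoters of the 9 genes held H3K4me1 than H3K27ac in each list, a difference that was not tested. Of 9 promoters, the number with H3K4me1 was 3 for wild type (20.8% over all genes), 5 for Flt3-ITD (27.9%), 6 for NUP98-HOXD13 (28.7%), 4 for Runx1-het (20.7%), 6 for Flt3-ITD/NUP98-HOXD13 (30.3%) and 7 for Flt3-ITD/Runx1-het (30.1%). The folds of these peaks were 2.16 to 6.10. At −log10 q of at least 5, 0 or 1 remained per list. At Jak1 a region of H3K4me1 in all 6 lists (midpoint 1.7 kb into the gene, chr4:101262692-101264531, folds 4.94 to 8.08) overlapped the H3K27ac promoter region, and 6 more regions in all 6 lists ran from 5.0 to 39 kb into the gene.

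Both marks met at most H3K27ac regions shared by all 6 lists, but at fewer of the shared H3K4me1 regions. Of the 21 H3K27ac regions in all 6 lists, 16 overlapped an H3K4me1 peak in every genotype and none lacked H3K4me1 in all. Of the 28 H3K4me1 regions in all 6 lists, 11 overlapped H3K27ac in every genotype and 4 in none. Of all 174 H3K4me1 regions, 93 had no H3K27ac in any list. These counts were not set beside those over all genes. The share of the 9 genes' H3K4me1 peaks that overlapped H3K27ac was 35.0% (26.4 to 44.7) for wild type, 36.2% (28.4 to 44.7) for Flt3-ITD, 33.3% (25.9 to 41.6) for NUP98-HOXD13, 36.5% (27.9 to 46.1) for Runx1-het, 34.4% (26.6 to 43.1) for Flt3-ITD/NUP98-HOXD13 and 38.5% (31.1 to 46.5) for Flt3-ITD/Runx1-het. Over all genes it was 26.7 to 34.3%, and the 6 intervals for the 9 genes overlap each other.

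The rest of the pathway was described from lists of receptors, inhibitors and STAT5 targets. Of 18 receptor genes, 14 had promoter H3K27ac in the wild-type list, 15 in that of Runx1-het and 16 in each of the other lists. Epor and Il7r, the receptors of erythropoietin and interleukin-7, had none in any list. Csf2ra, the GM-CSF receptor alpha chain, had the strongest receptor peak in every list, with folds of 25.9 to 48.4. Flt3 had 23.5 for wild type, 38.4 for Flt3-ITD, 21.0 for NUP98-HOXD13, 31.3 for Runx1-het, 25 for Flt3-ITD/NUP98-HOXD13 and 17.8 for Flt3-ITD/Runx1-het.

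The inhibitors differed between lists more than the kinases and STATs did in whether a promoter peak was called, a difference that was not tested. Of 13 inhibitor genes 9 had promoter H3K27ac in the wild-type list, 10 in that of Runx1-het, 12 in that of Flt3-ITD/Runx1-het and 11 in each of the others. Socs2, a STAT5-induced feedback inhibitor, had no promoter peak in wild type and Runx1-het, a fold of 3.75 for NUP98-HOXD13, and 15.4 for Flt3-ITD, 12 for Flt3-ITD/NUP98-HOXD13 and 17.8 for Flt3-ITD/Runx1-het. Cish, another STAT5-induced inhibitor, had 3.68 to 7.81 in the mutant lists and no peak in the wild-type list. Each Flt3-ITD list lay above every list without it at Socs2 and Cish, and also at Ptpn1 and Ptpn6. At Socs1, Ptpn2, Ptprc, Sh2b3, Pias1, Usp18 and Cbl the lists with and without Flt3-ITD overlapped. The share of promoters over all genes with this order was not counted, and the order was not tested. Over the whole list of inhibitors Flt3-ITD gained 33 and lost 5 H3K27ac regions against wild type, and the other 4 mutant lists gained 14 to 35 and lost 6 to 9. The STAT5 targets gained 16 and lost 5 in Flt3-ITD, and gained 8 to 27 and lost 5 to 7 in the others. In each mutant list both sets thus gained more regions than they lost, though only 8 against 7 for the STAT5 targets in Runx1-het. With all peaks the kinases and STATs lost more than they gained (9 and 25 in Flt3-ITD). That imbalance did not hold at −log10 q of at least 5, where the inhibitors and STAT5 targets were not counted. Over all genes 26.8% were gained and 26.2% lost in Flt3-ITD, 22.1% and 32.1% in Runx1-het, and 33.6% and 23.4% in Flt3-ITD/Runx1-het. The contrast was not tested. Of 5 STAT5 targets, 3 had promoter H3K27ac in wild type and 4 in every mutant list. Pim1, a kinase of cell survival, had 28.5 for wild type and 32.7 to 67.8 in the mutant lists, Bcl2l1 had 3.67 to 8.56 in the mutant lists and no peak in the wild-type list, and Id1 had none in any list.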

How the data were processed

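The 12 deposited peak lists, 1 per genotype and mark, hold narrow peaks that the authors called with MACS2 after alignment with BWA to mm10 (GRCm38), per the submitters' processing notes; no version or peak threshold is stated there. For every peak the deposited lists hold a score, which was not used, a fold enrichment (a ratio over control at the summit), and −log10 p and −log10 q. The deposited −log10 values served as filters only, and the deposited fold described and ranked peaks within a list. The lists pool the 3 or 4 samples of a group, per the labels 39 samples with a mark, and 1 input sample was not analysed here. Depth is unknown, so no limit from depth is given.

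Peaks of the 6 lists of a mark were merged at an overlap of 1 bp. Peaks were assigned by summit and merged regions by midpoint to the nearest of 41421 start sites of 21840 protein-coding genes (GENCODE mouse release 21, basic set) within 50000 bp. A promoter was the range within 1000 bp of a start site. The 7 comparisons were each mutant against wild type and each genotype with Flt3-ITD and a second alteration against that alteration alone. Shares carry 95% Wilson intervals (Python 3.11.15, scipy 1.17.1, pandas 2.3.3). Counting was tested on simulated data with planted gains and losses. The members and all lists were chosen with earlier results of these data known. Text names all 9 genes, their promoter regions, their highest distal H3K27ac region and each region that follows a genotype. Other regions and the Stat4 and Stat5b start sites were chosen after their values were seen. So were the rank among shared regions and the counts of regions lowest or highest with the fusion. Motifs were searched in RefSeq promoter windows (250 bp before the start, GRCm38.p6) in place of peak summits, since genome sequence was not used here, and printed windows stop at annotated starts. Alternatives were a −log10 q of at least 5, equal-length lists, coverage of at least 0.5, start sites within 100000 bp, distance from the edge or strongest summit, summit windows of 250 bp to each side, and promoters within 2000 bp.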

Additional observations from a re-analysis of the deposited data

How the results depend on the processing

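No paired analysis was possible because each group was deposited as 1 pooled peak list, which also means that no replicate could be left out. The gained shares of the 9 genes stayed inside the main 95% interval in 85 of 98 recomputed values, and in all of those from start sites within 100 kb, edge distance, coverage of at least 0.5, summit windows and the strongest summit (the last added after the data were seen). The 13 that left it came from stricter or shorter lists. At −log10 q of at least 5 the H3K27ac share was 83.3% for Flt3-ITD, 50% for NUP98-HOXD13, 88.9% for Runx1-het, 75% for Flt3-ITD/NUP98-HOXD13 and 80.0% for Flt3-ITD/Runx1-het against wild type, 83.3% when Flt3-ITD/NUP98-HOXD13 was set against the fusion alone and 25% for Flt3-ITD/Runx1-het against Runx1-het. For H3K4me1 it was then 8.0% for NUP98-HOXD13 and 58.8% for Flt3-ITD/Runx1-het against wild type, and 93.3% for Flt3-ITD/NUP98-HOXD13 against the fusion alone. With equal-length lists the H3K27ac share was 5.26% for NUP98-HOXD13 against wild type and 77.8% for Flt3-ITD/NUP98-HOXD13 against the fusion alone, and the H3K4me1 share 54.3% for Flt3-ITD against wild type. The stricter threshold leaves 5 to 9 changed H3K27ac regions per comparison, so these shares rest on few regions. Equal-length lists and every other alternative left the H3K27ac shares against wild type below those over all genes.

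H3K4me1 promoters fell to 0 in wild type and NUP98-HOXD13 and to 1 in the other 4 lists at −log10 q of at least 5, the Flt3-ITD/Runx1-het list held 4 with equal-length lists, and wild type held 7 within 2 kb. H3K27ac promoters stayed at 8 or 9 of 9 in each alternative. Of 112 recomputed counts of regions that follow a genotype, 26 moved by over 1.5 times. The H3K27ac regions in wild type only went from 15 to 1 at −log10 q of at least 5, those of H3K4me1 from 9 to 4 with summit windows, and the others moved between 0 and 5 regions. With coverage of at least 0.5, 3 H3K27ac regions were in all mutants and not in wild type, 1 was in the fusion lists only and 2 were missing from them. Peak counts of the 9 genes moved by over 1.5 times at the stricter threshold only (11 of 12 lists). Depth is unknown, and weak peaks near the calling threshold limit every count.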
